A study of Mus musculus with 8 samples.

Results

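NF-κB is a family of dimeric transcription factors, and 10 of its genes were examined in the liver: the canonical subunits Nfkb1, Rela and Rel, the non-canonical subunits Nfkb2 and Relb with their kinase Map3k14, and the feedback regulators Nfkbia, Nfkbie, Bcl3 and Tnfaip3. They were chosen by gene symbol, matched through the GRCm38 annotation to the Ensembl identifiers of the count tables. All 10 were found among the 52636 genes listed, and all 10 had enough counts to be among the 15248 genes tested.

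The libraries were made from liver RNA of 8 male wild-type C57BL/6J mice, 1 library per mouse. All 8 mice were injected with an AAV8 vector at 7 weeks of age and were fed the NASH diet, rich in fat, cholesterol and fructose, from 8 weeks of age for 24 weeks. The 4 AAV8-GFP mice, numbered 303, 311, 314 and 315, received AAV8-TBG-GFP, and the 4 AAV8-AGXT mice, numbered 308, 309, 316 and 319, received AAV8-TBG-AGXT. TBG is a promoter that is active in hepatocytes, so the transgene was directed to hepatocytes while the RNA came from whole liver. No mice on another diet or without a vector were among these libraries, so the values describe steatohepatitis with and without AGXT overexpression and not the diet itself.

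In the canonical arm, inflammatory signals such as TNF, interleukin-1 and Toll-like receptor ligands activate the IκB kinase complex, IκBα (Nfkbia) is degraded, and dimers of p50 (from Nfkb1) and RelA (Rela) or c-Rel (Rel) enter the nucleus. In the non-canonical arm, receptors such as Fn14 (Tnfrsf12a), CD40 and the lymphotoxin β receptor stabilize the kinase NIK (Map3k14), which drives the processing of p100 (Nfkb2) to p52 and the release of p52 and RelB (Relb) dimers. NF-κB activates the genes of several of its own subunits and inhibitors, among them IκBα and the ubiquitin-editing enzyme A20 (Tnfaip3), and these feedback loops limit inflammation in hepatocytes as well as in immune cells. Regulation of NF-κB is largely by protein degradation, processing and nuclear entry, none of which RNA levels measure.

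The start sites of these genes are shown because most of those searched match the consensus of NF-κB binding itself. These are Rel in the canonical arm, Nfkb2 in the non-canonical arm and each of the feedback genes. Reference promoter windows (RefSeq, GRCm38.p6, 250 bases before to 50 bases after a transcription start) were found for 8 of the 10 genes, 11 windows in all. They were searched on both strands for the κB consensus. Nfkb1 and Relb had no window and were not searched. The consensus was matched in 8 of these 11 windows and in 6 of the 8 genes, against 1480 (4.51%) of the 32851 windows of the table and 5.14% of its 27025 genes. Matches are written below in capitals, overlapping matches as 1 stretch, with every sequence running 5′ to 3′ on the strand of its gene. The Nfkb2 window at chr19:46304487-46304786 (plus strand) held 2 stretches, beginning at -39 and -11 from the start site, and the Tnfaip3 window at chr10:19015361-19015660 (minus strand) held 2, at -125 and -12. The Rel window at chr11:23770920-23771219 (minus strand) held 1 stretch, at -92, and the Nfkbia window at chr12:55492598-55492897 (minus strand) held 1, at -29. The Rela window at chr19:5637291-5637590 (plus strand) held none.
Nfkb2: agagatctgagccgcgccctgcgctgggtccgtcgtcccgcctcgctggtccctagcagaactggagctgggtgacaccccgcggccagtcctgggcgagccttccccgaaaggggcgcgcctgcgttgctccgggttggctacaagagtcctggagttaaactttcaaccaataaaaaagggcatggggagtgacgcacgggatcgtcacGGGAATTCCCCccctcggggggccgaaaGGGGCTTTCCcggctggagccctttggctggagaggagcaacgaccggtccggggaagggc
Tnfaip3: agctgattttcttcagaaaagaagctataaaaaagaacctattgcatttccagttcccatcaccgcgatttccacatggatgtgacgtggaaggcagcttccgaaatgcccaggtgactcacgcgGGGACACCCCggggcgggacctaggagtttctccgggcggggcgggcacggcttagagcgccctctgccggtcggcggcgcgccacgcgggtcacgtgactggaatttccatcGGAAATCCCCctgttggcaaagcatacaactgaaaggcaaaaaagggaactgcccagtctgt
Rel: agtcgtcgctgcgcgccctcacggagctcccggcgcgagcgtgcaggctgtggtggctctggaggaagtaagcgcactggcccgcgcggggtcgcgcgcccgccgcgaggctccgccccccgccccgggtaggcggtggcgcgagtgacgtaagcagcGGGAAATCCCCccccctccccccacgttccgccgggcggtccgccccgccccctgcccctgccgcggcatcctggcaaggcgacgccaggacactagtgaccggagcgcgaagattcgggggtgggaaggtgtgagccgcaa
Nfkbia: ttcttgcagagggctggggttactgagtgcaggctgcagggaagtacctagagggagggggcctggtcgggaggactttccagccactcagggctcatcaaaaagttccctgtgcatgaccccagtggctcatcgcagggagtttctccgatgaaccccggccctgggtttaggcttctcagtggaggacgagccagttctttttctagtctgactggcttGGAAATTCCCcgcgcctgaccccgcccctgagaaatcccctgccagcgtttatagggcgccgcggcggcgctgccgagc
Rela: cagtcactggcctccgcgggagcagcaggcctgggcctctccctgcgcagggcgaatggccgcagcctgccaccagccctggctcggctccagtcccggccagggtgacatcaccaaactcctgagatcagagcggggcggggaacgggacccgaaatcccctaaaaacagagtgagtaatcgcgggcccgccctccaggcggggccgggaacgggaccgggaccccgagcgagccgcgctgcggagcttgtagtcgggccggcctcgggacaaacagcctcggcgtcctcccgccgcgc
Nfkbie held 1 match, at -106, and Bcl3 held 1, which began at position 3 after the start. Both other Nfkb2 windows held a match, but they overlap and 1 stretch lies in both, so that the 11 windows held 10 distinct stretches, and the other Tnfaip3 window and the Map3k14 window held none. A match describes these letters only and is not a measured binding site.

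Between 19747909 and 28780140 read pairs per AAV8-GFP mouse and between 17095433 and 23940200 per AAV8-AGXT mouse were counted on genes. Mouse 308 had the lowest share of its read pairs on genes, 56.3% against 62.4% to 69.1% in the other 7 mice, and the lowest scaling factor. Marker genes of hepatocytes were abundant in every library, summing to between 45970 and 75430 CPM, the read counts scaled to a common library size. The mouse Agxt gene was at 164 ± 15.8 CPM with AAV8-GFP and at 305 ± 98.3 CPM with AAV8-AGXT (SD, n = 4 each, log2 fold change 0.90, adjusted p = 0.0489, edgeR), although the transgene is human and its reads cannot be told apart here from those of the mouse gene. In 12 of 16 alternative settings Agxt no longer passed the threshold, with log2 fold changes between 0.63 and 1.03.

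Expression of the non-canonical subunits Nfkb2 and Relb and of the feedback inhibitor Tnfaip3 was lower in AAV8-AGXT than in AAV8-GFP livers, by 1.77-fold, 2.26-fold and 2.14-fold. In whole-liver RNA, fewer cells of a type and less RNA per cell cannot be told apart. The canonical subunits Nfkb1, Rela and Rel had no difference that passed the test, with log2 fold changes of -0.21, -0.18 and 0.00. In total 3 of the 10 genes were lower and 0 were higher at an adjusted p under 0.05, where 1.9% of all tested genes were lower, 2.45% were higher and 4.35% passed in either direction. At an unadjusted p under 0.05, 7 genes were lower and 0 were higher, where 12.6% of all tested genes were lower and 13.5% higher. DESeq2 called 4 of the 10 lower and 0 higher, against 6.11% lower and 6.29% higher of all genes it tested, and limma-voom called 3 lower and 0 higher, against 1.82% and 2.65%. The fitted log2 fold change was below 0 in all 10 genes, with a median of -0.44, and it was below 0 in 47.7% of all tested genes, with a median of 0.02.

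**Figure D1:**
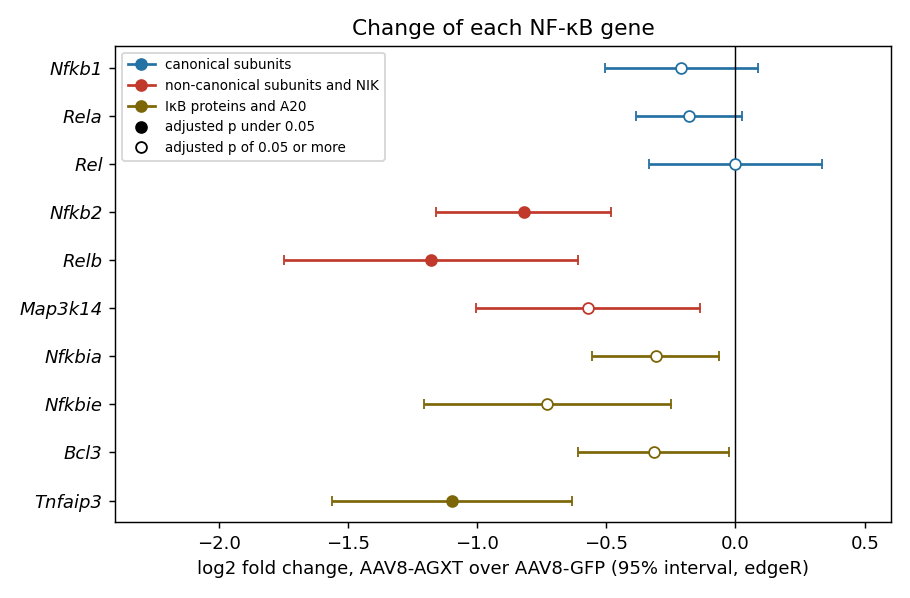
Log2 fold change of AAV8-AGXT over AAV8-GFP livers for each of the 10 genes, with its 95% interval from the edgeR fit and filled points for an adjusted p under 0.05. Nfkb2, Relb and Tnfaip3 are filled, at -0.82, -1.18 and -1.10, and the intervals of Nfkb1, Rela and Rel include 0.

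Nfkb1 (chromosome 3, 135584655 to 135691547) encodes p105, the precursor of p50. It had 35.4, 40.7, 42.1 and 41.4 CPM in AAV8-GFP mice 303, 311, 314 and 315 and 27.8, 42.9, 33.2 and 34.1 CPM in AAV8-AGXT mice 308, 309, 316 and 319. The groups overlapped, and mouse 309 had the highest value of all 8. Nfkb1 had a log2 fold change of -0.21 (SE 0.133, 95% interval -0.51 to 0.09, edgeR adjusted p = 0.343).

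Rela (chromosome 19, 5637483 to 5648130) encodes RelA, the main activating subunit of the canonical arm. Its level was 79.1, 82.9, 83.4 and 87.6 CPM in the AAV8-GFP mice and 74.7, 80.3, 67.3 and 71.6 CPM in the AAV8-AGXT mice, in the same order. Only mouse 309 reached the AAV8-GFP range. The log2 fold change of Rela was -0.18 (SE 0.092, 95% interval -0.39 to 0.02, edgeR adjusted p = 0.245), so that its interval reached no further down than a fall of 0.39 on the log2 scale.

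Rel (chromosome 11, 23736847 to 23770970) encodes c-Rel, a subunit best known from lymphocytes. It was measured at 8.47, 7.44, 7.52 and 8.16 CPM in AAV8-GFP mice and at 9.73, 7.33, 7.76 and 6.80 CPM in AAV8-AGXT mice. Mouse 308 was the highest and mouse 319 the lowest of all 8, so that the AAV8-AGXT values enclosed those of AAV8-GFP. The group means were 7.90 ± 0.50 and 7.90 ± 1.28 CPM (SD, n = 4 each), with an edgeR adjusted p of 0.998 and a 95% interval from -0.34 to 0.33 for the log2 fold change.

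Nfkb2 (chromosome 19, 46304320 to 46312385) encodes p100, both the precursor of p52 and an inhibitor of RelB. It had 29.4, 40.4, 40.9 and 39.8 CPM in AAV8-GFP mice 303, 311, 314 and 315 and 17, 23.9, 24.6 and 19.7 CPM in AAV8-AGXT mice 308, 309, 316 and 319. The groups did not overlap, and mouse 303 stood apart as the lowest of the AAV8-GFP mice. Nfkb2 fell, with a log2 fold change of -0.82 (SE 0.152, 95% interval -1.16 to -0.48, edgeR adjusted p = 0.0334). Nfkb2 shares 299 of its exon bases (6.52%) with Psd on the opposite strand, which had a mean of 6.22 CPM with the GFP vector and 3.88 with the AGXT vector, and 531 bases (11.6%) with AC114539.1. The strand option of the counting was not stated, so reads of these overlaps cannot be assigned with certainty.

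Relb (chromosome 7, 19606217 to 19629438) encodes RelB, the transactivating partner of p52. Its level was 17, 22.5, 19.6 and 13.9 CPM in AAV8-GFP mice and 5.18, 8.35, 12.2 and 6.42 CPM in AAV8-AGXT mice. The groups did not overlap, and mouse 308 was the lowest. The closest values across the groups were those of mouse 316 and mouse 315. Relb fell by 1.18 on the log2 scale (SE 0.256, 95% interval -1.75 to -0.61, edgeR adjusted p = 0.0410), from raw counts between 75 and 734 per mouse.

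Map3k14 (chromosome 11, 103219762 to 103267472) encodes NIK, the kinase on which the non-canonical arm depends. It had 10.4, 14.3, 17.5 and 12.1 CPM in AAV8-GFP mice and 7.53, 11.4, 9.66 and 7.93 CPM in AAV8-AGXT mice. The groups overlapped through mouse 303 and mouse 309. Map3k14 had a log2 fold change of -0.57 (SE 0.195, 95% interval -1.0 to -0.14) and an edgeR adjusted p of 0.105 (unadjusted p = 0.0150), which did not pass the threshold.

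Tnfaip3 (chromosome 10, 19000910 to 19015657) encodes A20, which edits ubiquitin chains on signalling proteins upstream of the IκB kinases. It was measured at 13.2, 18.9, 15.4 and 13.1 CPM in AAV8-GFP mice and at 4.56, 8.77, 7.91 and 7.03 CPM in AAV8-AGXT mice. Every AAV8-AGXT mouse was below every AAV8-GFP mouse, and mouse 308 was again the lowest. Tnfaip3 fell by 1.10 on the log2 scale (SE 0.208, 95% interval -1.56 to -0.63, edgeR adjusted p = 0.0341).

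Nfkbia (chromosome 12, 55489410 to 55492647) encodes IκBα, the inhibitor that is rapidly degraded and resynthesized in the canonical arm. Its level was 71.0, 81.1, 70.7 and 75.0 CPM in AAV8-GFP mice and 69.2, 51.7, 56.4 and 63.1 CPM in AAV8-AGXT mice. The groups did not overlap, but mouse 308, which was lowest for Relb and Tnfaip3, was here the highest of its group and close to mouse 314. The log2 fold change of Nfkbia was -0.31 (SE 0.110, 95% interval -0.55 to -0.06, edgeR adjusted p = 0.117), which did not pass the threshold.

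Nfkbie (chromosome 17, 45555703 to 45563169) encodes IκBε, an inhibitor of RelA and c-Rel dimers. It had 7.93, 11.4, 9.64 and 6.97 CPM in AAV8-GFP mice and 4.0, 4.93, 6.88 and 5.81 CPM in AAV8-AGXT mice. The groups did not overlap, although mouse 315 and mouse 316 were nearly level. The log2 fold change of Nfkbie was -0.73 (SE 0.214, 95% interval -1.21 to -0.25), with an adjusted p of 0.0765 by edgeR and of 0.0204 by DESeq2, so that its call depended on the tool.

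Bcl3 (chromosome 7, 19808462 to 19822770) encodes an atypical IκB protein that acts in the nucleus with p50 or p52 dimers. It was measured at 57.1, 62.0, 76.6 and 80.9 CPM in AAV8-GFP mice and at 52.7, 49.8, 57.8 and 61.7 CPM in AAV8-AGXT mice. The groups overlapped, mice 316 and 319 lying above mouse 303. Bcl3 had a log2 fold change of -0.32 (SE 0.131, 95% interval -0.61 to -0.03) and an edgeR adjusted p of 0.160. Bcl3 and Relb lie 179023 bp apart on chromosome 7, and of the 13 genes between them 9 were tested and 0 passed the threshold in either direction, with log2 fold changes from -1.03 to 0.34.

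**Figure D2:**
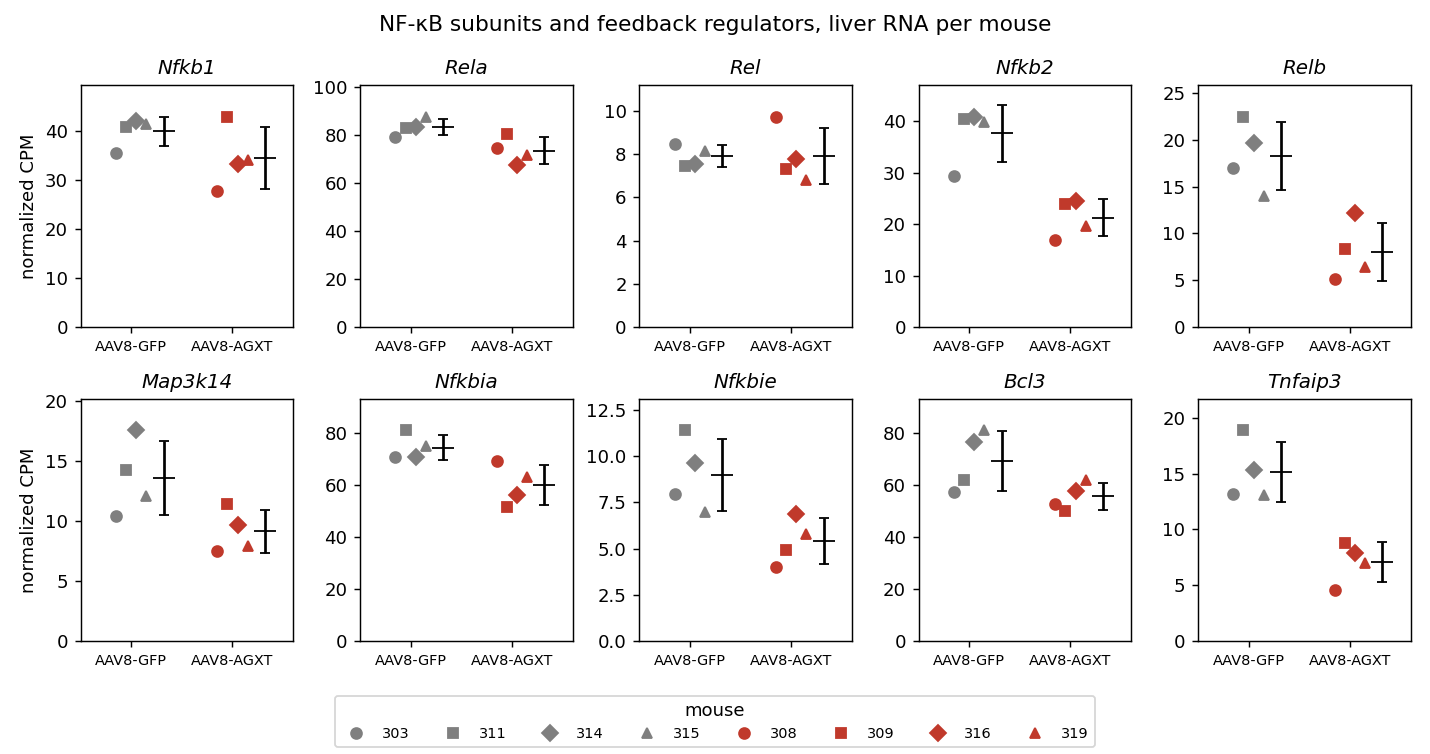
Normalized CPM of each of the 10 genes in every mouse, grey for AAV8-GFP and red for AAV8-AGXT, 1 symbol per mouse, with the group mean and SD (n = 4) as a black bar. The groups do not overlap for Nfkb2, Relb, Nfkbia, Nfkbie and Tnfaip3, and overlap for the other genes.

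For 5 of the 10 genes all AAV8-AGXT values lay below all AAV8-GFP values, which was so for 7.63% of all tested genes, and for 0 of the 10 did they all lie above, which was so for 8.93%. Mouse 308 had the lowest value of its group in 6 of the 10 genes and the highest in 2, and mouse 303 the lowest of its group in 5. The calls of Nfkb2, Relb and Tnfaip3 depended on single mice, while their direction did not. Without mouse 311 the edgeR adjusted p-values of Nfkb2, Relb and Tnfaip3 were 0.126, 0.146 and 0.127, without mouse 314 they were 0.0862, 0.101 and 0.0862, and without mouse 319 they were 0.0885, 0.104 and 0.0885, so that 0 of the 10 genes passed. Of all tested genes, 0 were lower without mouse 311, 4 without mouse 314 and 2 without mouse 319, against 290 with all mice. The loss in these runs was therefore not particular to the 10 genes. Without mouse 303, where 79 of all tested genes were lower, only Nfkb2 of the 10 passed, Tnfaip3 reaching 0.0505 and Relb 0.0693. Relb alone was also lost without mouse 308 (0.0700) or mouse 309 (0.0557). Over all 8 omissions the log2 fold change ranged from -0.92 to -0.74 for Nfkb2, from -1.45 to -1.04 for Relb and from -1.23 to -0.95 for Tnfaip3. With libraries scaled to total counts alone, the median log2 fold change of all tested genes moved to -0.22 and 6 of the 10 genes were called lower, Rela, Nfkbia and Bcl3 in addition. Relative to that median Rela was then at -0.20, Nfkb2 at -0.82, Relb at -1.18 and Tnfaip3 at -1.10.

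Whether a non-canonical subunit differed in its change from a canonical one was tested on the ratio of the 2 within each mouse. The pairs were Nfkb2 to Nfkb1 and Relb to Rela, without Map3k14 and Rel, so they do not stand for whole arms. The genes were chosen with earlier results of these data known, so the p-values are not an independent test. The log2 difference of Nfkb2 CPM from Nfkb1 CPM was -0.27, -0.01, -0.04 and -0.06 in AAV8-GFP mice 303, 311, 314 and 315 and -0.71, -0.84, -0.43 and -0.79 in AAV8-AGXT mice 308, 309, 316 and 319. All 4 AAV8-AGXT mice were below all 4 AAV8-GFP mice. The group means were -0.09 ± 0.12 and -0.69 ± 0.18 (SD, n = 4 each), a difference of -0.60, with p = 0.0286 in a two-sided exact permutation test, the smallest p that 4 mice against 4 allow. Adjusted over the 2 ratios tested, this exact permutation p was 0.0571, which did not pass the threshold.

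The log2 difference of Relb from Rela was -2.21, -1.88, -2.08 and -2.64 in the AAV8-GFP mice and -3.83, -3.25, -2.45 and -3.46 in the AAV8-AGXT mice. Mouse 316 lay within the AAV8-GFP range and the other 3 AAV8-AGXT mice below it. The group means differed by -1.04, with an exact permutation p of 0.0571 before and after adjustment over the 2 ratios. Per kilobase of exon, Relb amounted to between 12.6% and 21.4% of the Rela level in AAV8-GFP mice and to between 5.48% and 14.4% in AAV8-AGXT mice. For Nfkb2 against Nfkb1 the same per-length ratio was 218% to 261% in AAV8-GFP and 147% to 195% in AAV8-AGXT mice. Exon length counted every annotated exon base of a gene once, 4584 for Nfkb2 and 12061 for Nfkb1, so these percentages depend on the annotation. In CPM, without length, the means of Nfkb2 and Nfkb1 were 37.6 and 39.9 in AAV8-GFP mice and 21.3 and 34.5 in AAV8-AGXT mice.

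**Figure D3:**
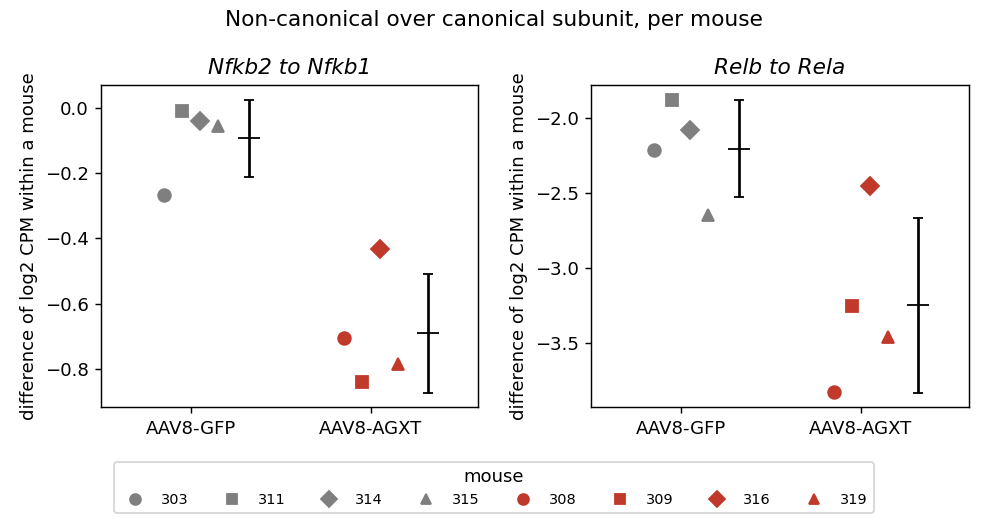
Log2 CPM of a non-canonical subunit minus that of a canonical subunit within each mouse, Nfkb2 to Nfkb1 on the left and Relb to Rela on the right, with the group mean and SD (n = 4). The groups are apart on the left, with means of -0.09 and -0.69, and on the right mouse 316 at -2.45 lies above mouse 315 at -2.64.

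Levels were compared between genes as CPM per kilobase of exon. Every annotated exon base of a gene was counted once, so the order of genes depends on the annotated length. In AAV8-GFP livers Nfkbia was highest at 46.2 ± 3.02 (SD, n = 4), followed by Bcl3 at 27.9, Rela at 27.1, Nfkb2 at 8.21, Relb at 4.70, Nfkb1 at 3.31, Nfkbie at 2.95, Tnfaip3 at 2.1, Map3k14 at 2.07 and Rel at 1.06. The ranges of mice overlapped between the neighbours Bcl3 and Rela, and along the run from Nfkb1 through Nfkbie and Tnfaip3 to Map3k14. In AAV8-AGXT livers Nfkbia was again highest at 37.3 ± 4.74 (SD, n = 4) and Nfkb2 was at 4.65 (means of 4 mice), above Nfkb1 at 2.86 and Relb at 2.07. Tnfaip3, in the eighth place in AAV8-GFP livers, was last at 0.978, and from Nfkb1 downwards every gene overlapped its neighbour in range.

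The genes whose profile over the 8 mice was most like that of Relb, by the root mean square difference of centred log2 CPM, were Hvcn1 (0.115), Gramd1b (0.117), Npdc1 (0.120), Plau (0.136) and Tmsb10 (0.148), out of 15247 genes ranked. Hvcn1 encodes a voltage-gated proton channel of phagocytes and B cells, Plau the urokinase plasminogen activator and Tmsb10 an actin-binding thymosin. The nearest of the NF-κB genes was Tnfaip3 at rank 54 (0.230), ahead of Nfkbie at rank 251 and Nfkb2 at rank 336. For Nfkb2 the most alike were Srgn (0.102), the proteoglycan serglycin of blood cell granules, Zfp566 (0.120), Zfp950 (0.121), Tceal9 (0.128) and Krtcap3 (0.13), and Map3k14 at rank 76 (0.196) was the nearest NF-κB gene. This measure uses the group difference as well as the spread within groups, so genes of a like fold change are alike by it.

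Of 82 other genes of the pathway, listed by role, 69 were tested, and 5 were lower and 2 higher. Of all tested genes, 1.9% were lower and 2.45% higher. The canonical kinases and adaptors had 0 of 18 called by edgeR and by limma-voom. At an unadjusted p under 0.05, 0 of them were lower and 3 higher (12.6% and 13.5% of all tested genes). DESeq2 called 1 higher (6.29% of its genes). The log2 fold changes of the 18 lay between -0.23 and 0.34 with a median of 0.04. The highest expressed of them on the CPM scale were Chuk and Rbck1. Chuk, the catalytic subunit IKKα that serves both arms, had 84.8, 77.5, 95.5 and 97.7 CPM in AAV8-GFP mice and 118, 119, 105 and 108 CPM in AAV8-AGXT mice. These groups did not overlap, yet the log2 fold change of 0.34 (SE 0.107) did not pass at an edgeR adjusted p of 0.0866. Rbck1, a component of the linear ubiquitin ligase, had a log2 fold change of 0.15 (edgeR adjusted p = 0.430). Scaling to total counts alone put Rbck1 at -0.10, which was 0.12 above the median of all tested genes under that scaling.

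The complex that keeps NIK low was represented by 4 genes, all with log2 fold changes below 0 (median -0.40), and 1 of them was lower (1.9% of all tested genes). Traf2, an adaptor that recruits the ubiquitin ligases of the complex, had 22, 25.9, 23.3 and 22.1 CPM in AAV8-GFP mice and 14.2, 14.2, 17.3 and 16.6 CPM in AAV8-AGXT mice. The groups were well apart, with a log2 fold change of -0.59 (SE 0.113, edgeR adjusted p = 0.0344). Traf3, Birc2 and Birc3, the rest of the complex, named here after their values were seen, did not pass, at -0.18, -0.42 and -0.38.

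Among receptors and ligands of the non-canonical arm, 8 of 12 were tested, with a median log2 fold change of -0.73 over the 8. A ligand and its own receptor, 2 of the 8, were lower (1.9% of all tested genes). At an unadjusted p under 0.05, 4 were lower and 0 higher (12.6% and 13.5% of all tested genes), and DESeq2 called 3 lower (6.11% of its genes). The lymphotoxin β receptor gene Ltbr, named here after its values were seen, had a log2 fold change of 0.30 (edgeR adjusted p = 0.198) and did not pass. The receptor Tnfrsf12a (Fn14) had 71.5, 62.4, 62.6 and 43.0 CPM in AAV8-GFP mice and 18.9, 24.6, 32.7 and 32.9 CPM in AAV8-AGXT mice. Its ligand Tnfsf12 (TWEAK) had 20.7, 24.7, 19.6 and 16.4 CPM in AAV8-GFP mice and 8.49, 12, 13.1 and 11.8 CPM in AAV8-AGXT mice. Neither gene overlapped between the groups. The log2 fold change was -1.13 (SE 0.204, edgeR adjusted p = 0.0309) for Tnfrsf12a and -0.84 (SE 0.167, edgeR adjusted p = 0.0350) for Tnfsf12. Tnfsf12 shares 731 of its exon bases (48.3%) with the annotated readthrough gene Tnfsfm13 on the same strand, so its counts are uncertain.

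The remaining inhibitors and feedback genes, 16 in number, had 1 lower and 1 higher (1.9% and 2.45% of all tested genes) and a median log2 fold change of -0.12. Traf1, an adaptor of TNF receptors, had 5.04, 7.29, 5.54 and 6.26 CPM in AAV8-GFP mice and 1.52, 3.31, 3.54 and 2.93 CPM in AAV8-AGXT mice (log2 fold change -1.09, SE 0.257, edgeR adjusted p = 0.0465). Otulin, which removes linear ubiquitin chains, had 34.4, 36, 36.2 and 34.2 CPM in AAV8-GFP mice and 55.2, 41.7, 45.8 and 63.1 CPM in AAV8-AGXT mice (0.55, SE 0.13, edgeR adjusted p = 0.0465). Otulin differed in the opposite direction to Tnfaip3, both being enzymes that act on ubiquitin. Its call was lost under 4 other scalings, filters or tools, with adjusted p-values from 0.0505 by limma-voom to 0.112 under total counts.

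Canonical target genes had 1 of 21 tested genes lower and 0 higher, although 18 of the 21 had log2 fold changes below 0, with a median of -0.80. At an unadjusted p under 0.05, 10 were lower and 0 higher (12.6% and 13.5% of all tested genes), DESeq2 called 9 lower (6.11% of its genes) and limma-voom 2 lower (1.82%). The gene called was Cxcl2, a neutrophil chemokine, with 1.17, 2.02, 1.38 and 2.21 CPM in AAV8-GFP mice and 0.621, 0.601, 0.514 and 0.519 CPM in AAV8-AGXT mice (log2 fold change -1.59, SE 0.298, edgeR adjusted p = 0.0335). It was scarce, with 9 to 66 raw counts per mouse. Of the non-canonical target genes only 2 of 6 were tested. Cxcl13, a B cell chemokine, was higher, from 0.0923 to 0.195 CPM in AAV8-GFP mice and at 0.898, 1.80, 0.668 and 10.3 CPM in AAV8-AGXT mice. Its raw counts were between 2 and 218 per mouse. Mouse 319 held most of this signal, and without it the log2 fold change of 4.52 (edgeR adjusted p = 0.0388) dropped to 2.90 (adjusted p = 0.0728). With all mice kept, limma-voom gave 3.63 and an adjusted p of 0.0720, and a minimum of 10 counts in every mouse removed the gene from the test. Cxcl12, the other one, had a log2 fold change of 0.30 (edgeR adjusted p = 0.120).

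The calls of these 7 genes also rested on single mice, as did most calls among all tested genes. With all mice, 290 of all tested genes were lower and 374 higher. Without mouse 311 these counts were 0 and 2, without mouse 314 they were 4 and 11, and without mouse 319 they were 2 and 12. Without mouse 311 the edgeR adjusted p-value was 0.127 for Traf2, 0.126 for Tnfrsf12a, 0.135 for Tnfsf12, 0.164 for Traf1, 0.151 for Otulin, 0.126 for Cxcl2 and 0.146 for Cxcl13. Without mouse 314 it was 0.0862 for Traf2, 0.0850 for Tnfrsf12a, 0.0870 for Tnfsf12, 0.103 for Traf1, 0.113 for Otulin, 0.0798 for Cxcl2 and 0.103 for Cxcl13. Without mouse 319 it was 0.0854 for Traf2, 0.0774 for Tnfrsf12a, 0.0885 for Tnfsf12, 0.109 for Traf1, 0.109 for Otulin and 0.0885 for Cxcl2. Omitting mouse 303 lost Traf2 (0.0537), Tnfrsf12a (0.0545), Tnfsf12 (0.0636), Traf1 (0.0695), Otulin (0.0902) and Cxcl13 (0.0738). Omitting mouse 308 lost Traf2 (0.0627), Tnfsf12 (0.0565), Traf1 (0.0627), Otulin (0.102) and Cxcl2 (0.0565). Mouse 316 was needed for Traf1 (0.0550), Otulin (0.0546) and Cxcl2 (0.0532), mouse 315 for Traf1 (0.0649), Otulin (0.0701) and Cxcl13 (0.0587), and mouse 309 for Traf1 (0.0552). The direction of all 7 stayed the same in each of the 8 omissions.

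**Figure D4:**
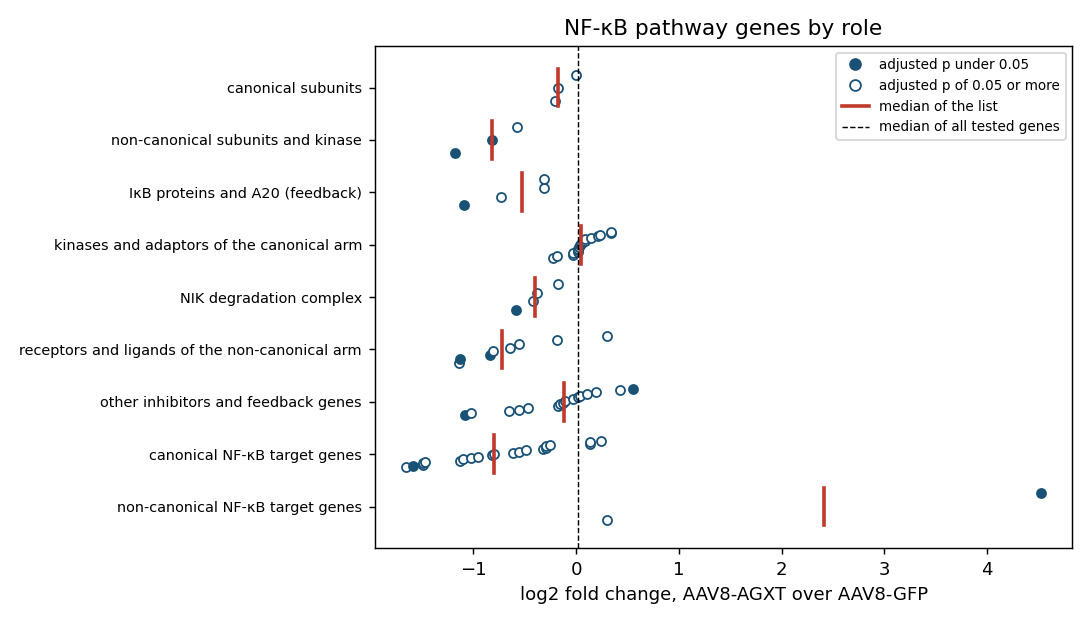
Log2 fold change of every tested gene of the NF-κB pathway, grouped by role, filled where the edgeR adjusted p was under 0.05, with the median of each list as a red bar and that of all tested genes as a dashed line. The canonical kinases and adaptors lie around a median of 0.04, the canonical target genes around -0.80, and Cxcl13 at 4.52 stands alone on the right.

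Summed levels of cell type markers, which were not tested as sums, were set beside these genes. The summed level of 6 markers of recruited and lipid-associated macrophages was between 181 and 273 CPM in AAV8-GFP mice. It was between 34.2 and 180 CPM in AAV8-AGXT mice, where mouse 308 was the lowest and mouse 316 the highest, as for Relb. All 6 had log2 fold changes below 0 (47.7% of all tested genes) and 1 of them, Cd9, was lower by the test (1.9%). At an unadjusted p under 0.05, 3 of these 6 were lower (12.6% of all tested genes). DESeq2 called 3 lower (6.11% of its genes) and limma-voom 1 (1.82%). Among AAV8-AGXT mice, 308 was also the lowest and 316 the highest for T cell and NK cell markers. Mouse 308 was likewise the lowest of its group for neutrophil, cholangiocyte and Kupffer cell markers. It was the highest of its group for hepatocyte markers (75430 CPM) and sinusoidal endothelial markers (195 CPM). For dendritic cell, B cell and stellate cell markers it was not the lowest. The library of mouse 308 also had the lowest share of read pairs on genes (56.3%) and the lowest scaling factor. Dendritic cell markers summed to 31.0 to 38.1 CPM and to 19.6 to 29.3 CPM, with 0 of 6 called by edgeR, DESeq2 or limma-voom. At an unadjusted p under 0.05, 2 of these 6 were lower (12.6% of all tested genes).

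The sums of the other lists overlapped between the groups. T cell and NK cell markers were at 13.3 to 21.4 CPM in AAV8-GFP mice against 5.45 to 15.3 in AAV8-AGXT mice, neutrophil markers at 20.3 to 32.3 and 6.84 to 21.8 CPM, and cholangiocyte markers at 23.5 to 62.6 and 13.7 to 33.2 CPM. Ly6g, the defining neutrophil marker, had too few counts to be tested. Its count was 0 in all AAV8-GFP mice but not in every AAV8-AGXT mouse. Kupffer cell and macrophage markers ranged from 365 to 560 and from 231 to 920 CPM, mouse 319 being the highest, B cell and plasma cell markers from 6.97 to 13.9 and from 5.89 to 12.1 CPM, and sinusoidal endothelial markers from 94.7 to 147 and from 98.7 to 195 CPM. Stellate cell markers lay between 323 and 505 and between 187 and 409 CPM. Of these 5 markers Acta2 was lower by the test (1.9% of all tested genes were) and 4 were not called. Only 3 of the 5 had log2 fold changes below 0, with a median of -0.15 and a highest value of 0.22. Hepatocyte markers summed to 45970 to 57580 CPM in AAV8-GFP mice against 54650 to 75430 in AAV8-AGXT mice. The part of these cell types in the levels of Nfkb2, Relb and Tnfaip3 was not tested.

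**Figure D5:**
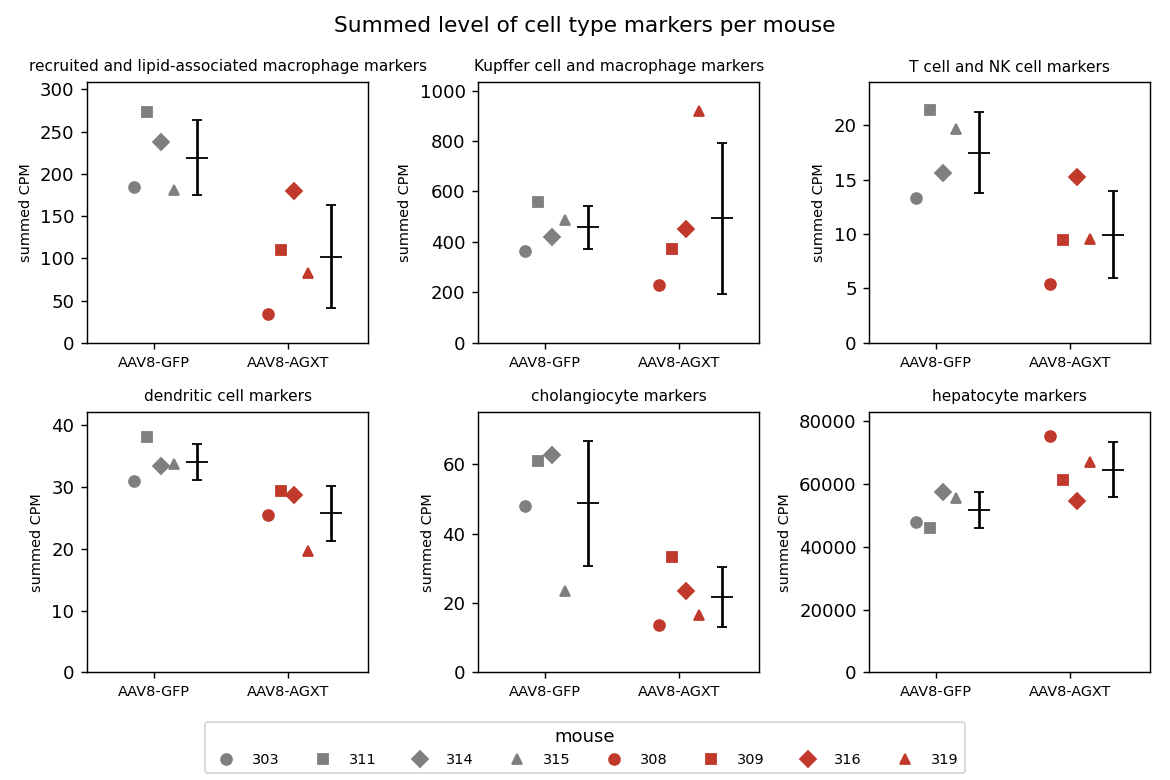
Summed CPM of the marker genes of 6 cell types in every mouse, 1 symbol per mouse, with the group mean and SD (n = 4). Recruited macrophage and dendritic cell markers do not overlap between the groups, and mouse 308 has the lowest of the recruited macrophage sums at 34.2 CPM.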

How the data were processed

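Liver RNA of 8 mice was sequenced as paired-end stranded mRNA libraries. The authors trimmed reads with Trimmomatic 0.35, aligned them with HISAT2 2.1.0.13 to GRCm38 and counted them on genes with HTSeq, and the deposited values are these raw counts, with neither normalization nor filtering. The strand option and overlap mode of the counting are not given in the sources used here. The labels do not say how mice were housed or whether libraries were prepared together, so a p-value measures the spread between these mice only.

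Symbols were assigned through GENCODE M21, which matched 52489 of the 52636 genes. The tests used edgeR 4.0.16 in R 4.3.3, with low counts removed by filterByExpr, TMM scaling, a quasi-likelihood fit on the vector received, and p-values adjusted by Benjamini-Hochberg across all 15248 tested genes. Genes were called at an adjusted p under 0.05. CPM include the TMM factor of each library, with a prior count of 2 added where logarithms were taken. The biological coefficient of variation was 23.3%, above the counting error of all but scarce genes. Alternatives were DESeq2 1.42.0, limma-voom (limma 3.58.1), robust dispersion, other scalings and filters and each mouse left out. The ratios were tested by two-sided exact permutation over 70 arrangements (Python 3.11.15).

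The 10 genes and all lists were chosen with earlier results of these data known. Of each pathway list the called genes were named (the 4 with the smallest p if more than 4), or, with none called, the 2 with the highest mean CPM. For Relb and Nfkb2 the 5 genes of most similar profile were named.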

Additional observations from a re-analysis of the deposited data

Results flagged for a closer look

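Nfkb2 in AAV8-GFP mouse 303 stood apart from the rest of its group. Its level there was 29.4 CPM, against 39.8 to 40.9 CPM in mice 311, 314 and 315, and the gap to the nearest mouse made up 0.902 of the range of the group, above Dixon's critical value for 4 samples. This was the only such value among the 24 groups of 4 mice examined for the 10 genes and the 2 ratios. Chance gives about 1 such value in 20 groups, so 1 among 24 is about the number that chance gives. The value lay nearer to the AAV8-AGXT mice, and without mouse 303 the log2 fold change of Nfkb2 was -0.92 in place of -0.82.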

How the results depend on the processing

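The 3 genes called lower, Nfkb2, Relb and Tnfaip3, passed under each of the 8 alternatives that kept all mice, with adjusted p-values up to 0.0328, 0.0438 and 0.0357, and 0 of the 10 genes were called higher under any of the 16 alternatives. With total counts only, 6 were called lower. With each mouse left out, between 0 and 3 were called lower. Of all tested genes, DESeq2 called 1024 lower and 1054 higher, and total counts only 857 lower and 144 higher, against 290 and 374 by edgeR. With each mouse left out these counts ranged from 0 to 325 lower and from 2 to 379 higher, the lowest being without mouse 311. The difference in the Nfkb2 to Nfkb1 ratio ranged from -0.68 to -0.55 with a mouse left out, at p = 0.0571 by exact permutation, the smallest p that 3 mice against 4 allow, and the Relb to Rela difference ranged from -1.31 to -0.85. Rel changed sign in 5 omissions, its log2 fold change ranging from -0.13 to 0.07, for which the cause was not tested. Rbck1 was at -0.10 under total counts only, a scaling that moved the median of all tested genes from 0.02 to -0.22, and was 0.12 above that median. The alternatives for genes other than the 10 were chosen after seeing the data. No paired analysis was possible because the groups share no animal numbers. With 4 mice a group, adjusted p-values near the threshold rested on single mice.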
